A study of Sus scrofa with 5 samples.

Results

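Arterial-type endothelial nuclei of the pig abdominal aorta were nuclei with at least 300 detected genes, at least 1 UMI (a unique molecular identifier, 1 counted RNA molecule) of 3 or more of the endothelial genes PECAM1, VWF, CDH5, PTPRB, TEK, ERG, EGFL7 and TIE1, and no UMI of the lymphatic genes PROX1 and RELN. Of these, a nucleus was arterial-type when it had more genes of an arterial panel (GJA5, GJA4, EFNB2, SEMA3G, BMX, HEY1, SOX17, DKK2) than of a venous or capillary panel (ACKR1, SELP, SELE, PLVAP, CA4, RGCC, TLL1, NR2F2) detected. The rule found 654 nuclei among 45505. SELE was not found by symbol, so 7 of the 8 venous or capillary genes were measured. The nuclei were chosen by the measured UMIs of these genes, so the levels of its genes are given as a description.

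The nuclei came from 5 castrated male Ossabaw pigs, a strain used as a model of diet-induced obesity and metabolic syndrome. All 5 were 12 months old when the diets began. An obese group of 3 pigs ate an HF/HFru diet and a control group of 2 pigs ate chow, for 6 months by one label and 9 months by another. Each library is labelled a replicate and was taken as 1 pig; the labels do not say more, so p-values measure the spread between these libraries. Each was made from a snap-frozen piece of abdominal aorta about 50 mm long whose nuclei were stained with DRAQ5 and sorted. The endothelial layer, the media and the small vessels of the outer wall were thus sampled together.

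Arterial endothelium is the single cell layer between blood and the muscular wall. It senses shear stress, makes nitric oxide and prostacyclin that relax the smooth muscle beneath it, and keeps its identity through Notch signalling, ephrin-B2 and arterial gap junction proteins. Veins and capillaries, including those that supply the outer arterial wall, carry other endothelial programmes, marked by genes such as ACKR1, SELP and NR2F2.

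The obese libraries held 62, 73 and 27 arterial-type nuclei and the control libraries 315 and 177. Their summed depth was 497442, 514376 and 232143 UMIs in the obese pigs and 2821742 and 1484864 in the controls. The median UMIs per arterial-type nucleus were 5455.5, 4531 and 5610 in the obese pigs and 8411 and 7591 in the controls, so both the number of nuclei and the depth per nucleus were lower in every obese pig. The libraries as a whole held 21516249 to 47724416 UMIs. Of 45580 barcodes, 199 sequences occurred in more than 1 library; 2 arterial-type barcodes were also listed in another library, and 0 were arterial-type in both. The panels differed by 1 gene in 283 arterial-type nuclei and by 2 or more in 371, and 540 held none of the venous or capillary genes.

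Since the rule chose the nuclei by PECAM1, BMX and the other genes of its lists, the levels of these genes describe the choice and do not check the label. Outside the rule, and chosen after their values were seen, NOS3, endothelial nitric oxide synthase, stood at 50.5 to 601 CPM (counts per 1000000, of all UMIs summed over a pig's arterial-type nuclei) in the 5 pigs and at 1.51 to 5.33 CPM in non-endothelial nuclei, and the endothelial gene CYYR1 at 171 to 1178 CPM and 3.47 to 13.3 CPM. PECAM1, the junction protein of all endothelium, was detected in 83.9%, 79.5% and 70.4% of arterial-type nuclei of the obese pigs and in 96.2% and 93.2% of the control pigs, against 5.36% to 9.61% of non-endothelial nuclei, which were shallower (median 1803 to 2612 UMIs). BMX, a kinase gene of arterial endothelium, stood at 175, 93.3 and 164 CPM in the obese pigs and at 357 and 316 CPM in the controls, against 1.06 to 3.40 CPM in non-endothelial nuclei. ERG and GJA5 did not separate the classes. ERG, an endothelial transcription factor gene, stood at 865 to 1051 CPM in arterial-type nuclei and at 640 to 1374 CPM in non-endothelial nuclei of the 5 pigs. GJA5, a gap junction gene of the arterial panel, stood at 125, 97.2 and 185 CPM in arterial-type nuclei of the obese pigs and 30.1 and 36.4 CPM in the controls, against 77.4 to 141 CPM in non-endothelial nuclei. Both genes count toward the rule, so it can admit nuclei through genes that non-endothelial nuclei of these libraries also carry.

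Smooth muscle transcripts were present, at different levels in the diet groups. The 10 smooth muscle markers (MYH11, ACTA2, TAGLN, CNN1, MYOCD, LMOD1, MYLK, SYNPO2, DES, ITGA8) summed to 5114, 5854 and 6156 CPM in arterial-type nuclei of the obese pigs and to 3292 and 2301 CPM in the controls. In non-endothelial nuclei they summed to between 7618 and 11029 CPM. Nuclei fell on both sides of 2500 CPM, a value set after the data were seen. Above it lay 43.5%, 38.4% and 44.4% of arterial-type nuclei of the obese pigs and 33.0% and 23.2% of the controls, and 2, 13, 2, 48 and 25 nuclei lay within 1.5 times of it. At least 3 of the 7 endothelial genes other than ERG were detected in 56.5%, 49.3% and 44.4% of arterial-type nuclei of the obese pigs and in 83.8% and 84.7% of the controls. Below 2500 CPM, in nuclei called smooth-muscle-low here, PECAM1 stood at 1080, 602 and 854 CPM in the obese pigs and 2122 and 2027 CPM in the controls; above it, at 125, 154 and 52.9 CPM and at 1074 and 781 CPM. Many of the diet results below are therefore also given in the smooth-muscle-low nuclei (35, 45 and 15 in the obese pigs, 211 and 136 in the controls).

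**Figure D1:**
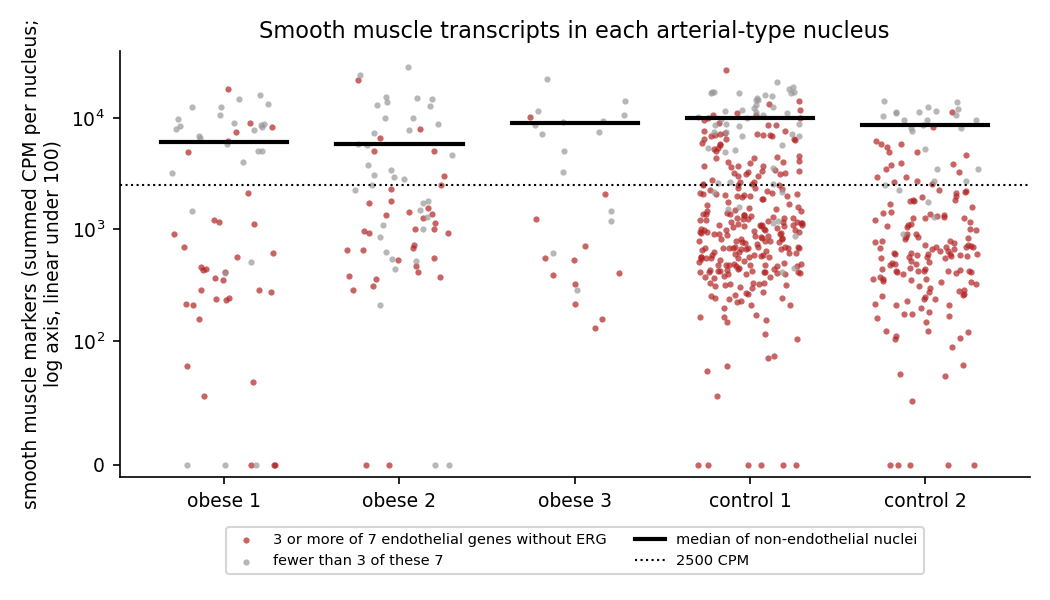
Summed CPM of 10 smooth muscle markers in each arterial-type nucleus (1 point per nucleus, log axis that is linear under 100) by pig, coloured by whether 3 or more of the 7 endothelial genes other than ERG were detected; black bars are the median of non-endothelial nuclei and the dotted line is 2500 CPM. Nuclei above the line make up 38.4% to 44.4% of each obese pig's points and 23.2% and 33.0% of each control pig's.

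Markers of other cell types summed to lower levels than the smooth muscle markers in arterial-type nuclei. Macrophage markers (11 genes) summed to 133, 377 and 4.31 CPM in the obese pigs and 4.96 and 6.73 CPM in the controls, and obese replicate 2 was the highest. Of its 11 macrophage markers, C1QA was at 0. In obese replicate 1, C1QA, C1QB, C1QC and LYZ were at 0. In smooth-muscle-low nuclei of the obese pigs the macrophage markers summed to 19.0, 533 and 0 CPM. The level in obese replicate 2 was thus higher there than in all its arterial-type nuclei. Fibroblast markers summed to 408, 332 and 297 CPM in the obese pigs and 736 and 737 CPM in the controls. In smooth-muscle-low nuclei of the obese pigs they were higher, at 552, 368 and 396 CPM. How far this sum comes from fibroblasts was not tested. Pericyte markers summed to 360 to 435 CPM in the obese pigs and 215 and 257 CPM in the controls. Lymphatic markers summed to 21.5 to 121 CPM with PROX1 and RELN at 0 by the rule. Most of that sum was TBX1, at 94.5, 31.1 and 17.2 CPM in the obese pigs and 114 and 119 CPM in the controls. TBX1 is given below among genes higher in arterial-type than in venous or capillary-type nuclei, so the sum is not read as a lymphatic trace. Over the 5 pigs, B or plasma cell markers summed to 35.1 to 148 CPM, T or NK cell markers to 3.37 to 34.2, Schwann cell markers to 8.08 to 17.2, adipocyte markers to 0 to 5.67 and mesothelial or epithelial markers to 0 to 4.02 CPM.

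Arterial-type nuclei made up a smaller share of the aorta in the obese pigs. They were 0.815%, 0.722% and 0.275% of all nuclei in obese replicates 1 to 3 (exact binomial 95% intervals 0.625 to 1.04, 0.567 to 0.907 and 0.181 to 0.400%, counting error only). In control replicates 1 and 2 they were 2.56% and 3.11% (2.29 to 2.86 and 2.67 to 3.59%). All 3 obese pigs lay under both controls, with group values of 0.604% ± 0.289 (SD, n = 3) and 2.84% ± 0.383 (SD, n = 2). The two-sided exact permutation test gave p = 0.2, the smallest value that 3 pigs against 2 allow. The groups did not overlap either in smooth-muscle-low nuclei (0.353% ± 0.173 against 2.05% ± 0.473 of all nuclei), with the 7 genes other than ERG (0.313% ± 0.173 against 2.39% ± 0.342), or when each nucleus was thinned to 1000 UMIs (0.156% ± 0.0531 against 1.01% ± 0.0430), each with exact permutation p = 0.2. In pieces of whole wall, fewer endothelial nuclei and more nuclei of other types cannot be told apart.

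The arterial-type share also differed within the blood endothelium. Arterial-type nuclei were 40.3%, 20.5% and 31.8% of blood endothelial nuclei in the obese pigs (154, 356 and 85 nuclei) and 62.9% and 72.5% in the controls (501 and 244 nuclei). The group values were 30.8% ± 9.91 (SD, n = 3) and 67.7% ± 6.84 (SD, n = 2), with exact permutation p = 0.2. Venous or capillary-type nuclei took 30.3% ± 11.3 of blood endothelial nuclei in the obese pigs and 8.46% ± 3.85 in the controls, and nuclei with equal panels 38.9% ± 5.05 and 23.8% ± 2.99. After thinning to 1000 UMIs the arterial-type share was 21.7% ± 4.17 against 45.1% ± 3.57. In smooth-muscle-low nuclei it was 29.9% ± 11.6 against 77.0% ± 7.71. The venous or capillary class was mixed in obese replicate 2, which held 154 of its nuclei: macrophage markers summed to 1834 CPM there and the 8 endothelial genes of the rule to 1270 CPM, against 3.21 to 435 CPM and 2495 to 4109 CPM in the other pigs. Without that pig the arterial-type share differed by -31.7 percentage points (obese minus control), and by -36.9 points with it. The panel gene BMX stood at 175, 93.3 and 164 CPM in the obese pigs and 357 and 316 CPM in the controls, but at 400, 182 and 470 against 467 and 386 CPM in smooth-muscle-low nuclei, where the groups overlapped (log2 difference -1.19 in all and -0.19 there). How far detection of the panel genes sets this share was not tested.

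**Figure D2:**
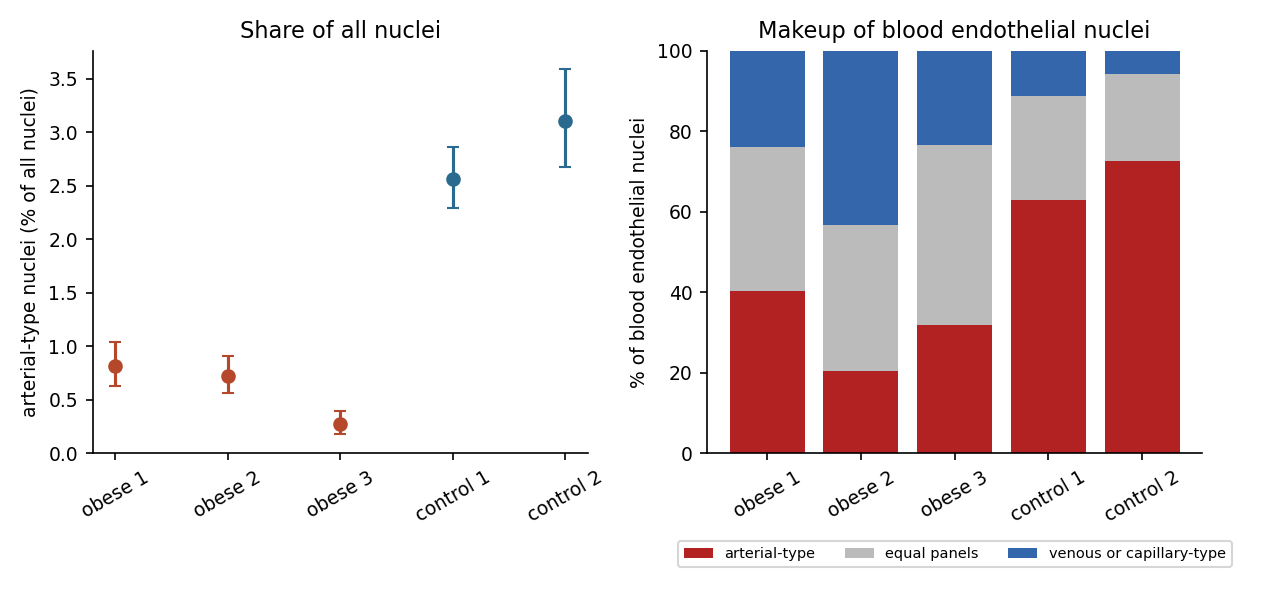
Left, arterial-type nuclei as a percent of all nuclei in each pig, with exact 95% binomial intervals that cover counting error only; right, the percent of blood endothelial nuclei that were arterial-type, had equal panels or were venous or capillary-type. The 3 obese pigs lie between 0.275% and 0.815% of all nuclei and the 2 control pigs at 2.56% and 3.11%.

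The genes of the rule varied among arterial-type nuclei. PECAM1 stood at 529, 369 and 332 CPM in the obese pigs and 1765 and 1691 CPM in the controls. PTPRB, a phosphatase of endothelial junctions, stood at 328, 243 and 246 CPM against 959 and 720 CPM, and the angiopoietin receptor TEK at 296, 109 and 56.0 CPM against 626 and 475 CPM. VWF, the platelet-binding clotting protein, went the other way, at 58.3, 142 and 146 CPM in the obese pigs and 7.09 and 18.9 CPM in the controls. In smooth-muscle-low nuclei VWF stood at 66.6, 234 and 322 CPM against 5.37 and 14.8 CPM. Of the 8 endothelial genes, CDH5 and ERG overlapped between the groups and the other 6 (PECAM1, PTPRB, TEK, VWF, EGFL7, TIE1) did not, which is also so for 17.1% of all genes tested upward and 21.2% downward. In smooth-muscle-low nuclei TEK (671, 182 and 148 against 806 and 575 CPM) and EGFL7 overlapped too, and PTPRB stood at 657, 291 and 557 against 1147 and 867 CPM.

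Among the arterial panel genes, EFNB2, the ligand ephrin-B2 of arterial cells, stood at 287, 331 and 121 CPM in the obese pigs and 372 and 504 CPM in the controls. In smooth-muscle-low nuclei EFNB2 was at 576, 554 and 235 CPM and at 404 and 586 CPM, and the groups overlapped. SEMA3G, a secreted semaphorin of arterial endothelium, stood at 16.1, 7.78 and 25.8 CPM against 51.4 and 46.5 CPM, and in smooth-muscle-low nuclei at 38.1, 12.1 and 74.2 against 65.0 and 54.4 CPM, where the groups overlapped. SOX17, an arterial transcription factor gene, was low in all pigs, at 7.09 to 17.5 CPM, and HEY1, a Notch target, at 1.42 to 6.73 CPM. Of the venous or capillary panel, CA4 was at 0 in all 5 pigs and ACKR1 in 4 of 5.

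Arterial-type nuclei were compared with venous or capillary-type nuclei (37, 154, 20, 56 and 14 nuclei) as a description, because the rule sorts on this contrast. The macrophage RNA in that class of obese replicate 2, given above, enters this comparison, and its part was not tested. Of 3801 genes with at least 50 CPM in the higher type, 260 (6.84%) were higher in arterial-type nuclei in 5 of 5 pigs and 244 (6.42%) were higher in venous or capillary-type nuclei. Outside the panels, the highest ratios were those of NLGN1, which encodes the synaptic adhesion protein neuroligin (654 CPM ± 586 against 37.3 ± 69.6, SD, n = 5, median log2 ratio 5.32), and of BCO1, the enzyme that cleaves beta-carotene to retinal (66.2 CPM ± 44.3 against 3.39 ± 7.59, median log2 ratio 4.96). The laminin chain LAMA1 (median log2 ratio 4.49), the hedgehog co-receptor CDON (3.64), the extracellular matrix gene EGFLAM (3.00) and the potassium channel KCNB2 (2.84) were also higher in all 5 pigs, with CLIP4, ANO4, BMERB1, MYZAP, PPFIA2 and TBX1. KCNB2 was not low outside the endothelium, at a mean of 245 CPM in non-endothelial nuclei, while NLGN1 (17.1), BCO1 (1.84) and LAMA1 (1.55 CPM) were. In venous or capillary-type nuclei BCO1 was at 0 in every pig but control replicate 2, at 17.0 CPM. LAMA1 was at 0 there in every pig but obese replicate 1 (6.49 CPM) and control replicate 1 (3.21 CPM). The size and order of such ratios thus depend on the pseudocount of 1 CPM and on shallow sums, 58919 UMIs in control replicate 2. RASGRP3, a Ras activator, led the genes higher in venous or capillary-type nuclei (33.3 CPM ± 47.4 against 219 ± 166, median log2 ratio -3.84), followed among others by the netrin receptor DCC (-3.04), the homeobox gene MEOX1 (-2.91) and the semaphorin receptor NRP2 (-2.64). Thinned to 1000 UMIs, 137 and 96 genes were higher in 5 of 5 pigs.

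The diet comparison asked how arterial-type nuclei of obese pigs differed from those of control pigs. ASS1, CAV1 and PTGS1, which act in nitric oxide supply, caveolae and prostanoid synthesis, fell. FOSL2, ATF3, NR4A3 and KLF6, transcription factor genes of the immediate early response, rose, as did the ERK inhibitor SPRY1 and the lipid-sensing receptor PPARG. In a fit of UMI counts summed per pig (edgeR quasi-likelihood test, adjusted over 6619 genes by Benjamini-Hochberg), 121 genes passed an adjusted p of 0.05, which is 1.83% of those tested. Of these, 59 (0.891%) were higher in the obese pigs and 62 (0.937%) lower, 15 had no symbol, and 3 (PECAM1, PTPRB, VWF) are genes of the rule. For each of the 121 genes every obese pig lay on one side of both controls, which held for 17.1% and 21.2% of all genes tested in the 2 directions. All adjusted p-values lay between 0.0136 and 0.0495. Without control replicate 1 the count was 0 (663 genes at an unadjusted p under 0.05), without control replicate 2 it was 1, without obese replicate 1 it was 10, without obese replicate 2 it was 28 and without obese replicate 3 it was 284, and the direction of every called gene that was tested stayed the same in these 5 fits. Since the groups did not overlap for any called gene, leaving out a pig could hardly change a direction. The unchanged directions are therefore no test of the calls. In smooth-muscle-low nuclei edgeR called 0 of 4464 genes (632 at an unadjusted p under 0.05), DESeq2 174 and limma-voom 25.

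Among the largest falls, GRIP1 and GRID1 were detected in most control nuclei and in a smaller part of the obese nuclei, which were shallower. The others were detected in a minority of control nuclei, such as THSD1 in 60 of 315 and 42 of 177. GRIP1, a scaffold protein of glutamate receptors, stood at 90.5, 75.8 and 99.1 CPM in the obese pigs and 1264 and 983 CPM in the controls. It was detected in 12 of 62, 7 of 73 and 7 of 27 nuclei and in 205 of 315 and 115 of 177. The 2 groups were far apart, and GRIP1 fell by 3.64 on the log2 scale (SE 0.30, adjusted p = 0.0136). In smooth-muscle-low nuclei it stood at 214, 158 and 285 CPM against 1592 and 1212 CPM, a log2 difference of -2.60 (adjusted p = 0.0918).

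GRID1, which encodes a glutamate receptor subunit of the delta type, followed the same pattern. It stood at 6.03, 33.0 and 25.8 CPM in the obese pigs and 675 and 851 CPM in the controls, and was detected in 2, 6 and 2 obese nuclei, against 170 and 115 control nuclei. The log2 difference was -5.15 (SE 0.51, adjusted p = 0.0216), and -4.24 in smooth-muscle-low nuclei (adjusted p = 0.09). Neither gene was a marker of the muscle, with 5.46 to 11.1 CPM of GRIP1 and 6.18 to 15.6 CPM of GRID1 in non-endothelial nuclei.

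ASS1, argininosuccinate synthase, which regenerates the arginine used by nitric oxide synthase, was detected in 2, 1 and 1 obese nuclei and in 126 and 52 control nuclei. Its levels were 4.02, 1.94 and 4.31 CPM against 90.4 and 53.2 CPM. The log2 difference was -4.41 (SE 0.57, adjusted p = 0.0313), and -3.45 in smooth-muscle-low nuclei (adjusted p = 0.103).

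CAV1, the coat protein of caveolae and a binding partner of nitric oxide synthase, fell as well. CAV1 stood at 131, 54.4 and 90.5 CPM in the obese pigs and 515 and 587 CPM in the controls (log2 difference -2.54, SE 0.38, adjusted p = 0.0416). In smooth-muscle-low nuclei the levels were 119, 40.4 and 99.0 CPM against 588 and 687 CPM, and the difference of -2.81 was no smaller. PTGS1, the constitutive cyclooxygenase, stood at 10.1, 11.7 and 4.31 CPM against 55.6 and 66.7 CPM (log2 difference -2.67, adjusted p = 0.0445; -1.70 in smooth-muscle-low nuclei).

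PLPP3, a phosphatase that degrades lysophosphatidic acid, stood at 368, 317 and 422 CPM in the obese pigs and 1111 and 1082 CPM in the controls. Its log2 difference was -1.53 (SE 0.28, adjusted p = 0.0445) and -2.02 in smooth-muscle-low nuclei. In non-endothelial nuclei PLPP3 differed in the other direction, at 516, 351 and 550 CPM against 292 and 221 CPM, without passing the test there. TGFB2, a ligand of the TGF-beta pathway, stood at 145, 75.8 and 68.9 CPM against 522 and 526 CPM (log2 difference -2.38, SE 0.36, adjusted p = 0.0414; -2.09 in smooth-muscle-low nuclei).

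Matrix and endothelial surface genes were among the other falls. The microfibril protein MFAP5 stood at 16.1, 5.83 and 4.31 CPM against 129 and 122 CPM (log2 difference -3.69 in all and -2.61 in smooth-muscle-low nuclei), FBLN2 of the fibulin family at 4.02, 5.83 and 0 against 50.3 and 36.4 CPM (-3.42 and -2.96), and LTBP4, which tethers latent TGF-beta, at 10.1, 9.72 and 4.31 against 45.0 and 62.0 CPM (-2.59 and -1.75). The endothelial membrane protein gene MYCT1 stood at 2.01, 7.78 and 4.31 CPM against 57.4 and 74.1 CPM (-3.73 and -3.03). For genes with 3 or fewer UMIs in all obese pigs together, the pooled ratio of obese to control CPM was 0.0233 for SMTNL2 (2 UMIs, 95% counting interval 0.00281 to 0.0850), 0.0336 for the kinesin KIF26A (3 UMIs, 0.00689 to 0.0991) and 0.0679 for THSD1 (3 UMIs, 0.0138 to 0.202). DPP10, a potassium channel partner, had 4 UMIs in the obese pigs and 29.4 and 133 CPM in the controls (log2 difference -4.57, adjusted p = 0.0488), with control replicate 2 well above replicate 1; in smooth-muscle-low nuclei DPP10 stood at 4.76, 4.04 and 0 against 24.2 and 180 CPM.

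The rises had 2 patterns when smooth-muscle-rich nuclei were set aside. Of the 59 rises, 35 stood higher in non-endothelial nuclei of the obese pigs than in arterial-type nuclei, and 53 did so in the control pigs, against 13 and 0 of the 62 falls. Of 47 rises that were tested in smooth-muscle-low nuclei, 34 were at least as large there and 5 were under 1 log2 unit. Of 59 falls tested there with UMIs in both groups, 7 were at least as large and 8 lay within 1 log2 unit of 0. The smooth muscle, fibroblast and pericyte levels given above differed between the diet groups without overlap. Macrophage levels were above both controls in obese replicates 1 and 2 but not in obese replicate 3, at 4.31 CPM. The part of these levels in the calls beyond these values was not tested.

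SPRY1, which dampens ERK signalling downstream of growth factor receptors rose. It stood at 127, 150 and 138 CPM in the obese pigs and 13.8 and 18.2 CPM in the controls (log2 difference 3.15, SE 0.34, adjusted p = 0.0216). In obese replicate 1, 50 of the 63 SPRY1 UMIs lay in 1 nucleus, without which that pig stood at 26.3 CPM, nearer to the controls. In smooth-muscle-low nuclei SPRY1 was at 262, 210 and 223 CPM against 6.45 and 23.1 CPM, a log2 difference of 4.11 (adjusted p = 0.09). That nucleus is among them, and the level of obese replicate 1 there rests mostly on it. In non-endothelial nuclei SPRY1 was at 62.0, 105 and 45.6 CPM against 42.6 and 36.5 CPM. The rise in arterial-type nuclei was larger (interaction log2 2.28, adjusted p = 2.5e-06, and 3.13 with smooth-muscle-low nuclei, adjusted p = 5.0e-05). Both interaction values include that nucleus.

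PPARG, a nuclear receptor for fatty acids, stood at 38.2, 278 and 56.0 CPM in the obese pigs and 3.54 and 1.35 CPM in the controls (log2 difference 5.51, SE 1.01, adjusted p = 0.0451). Obese replicate 2, which also carried the most macrophage RNA, was the highest, and the part of that RNA was not tested; non-endothelial nuclei of that pig held 145 CPM. In smooth-muscle-low nuclei PPARG was at 33.3, 469 and 161 CPM against 1.61 and 1.84 CPM. Macrophage markers summed to 533 CPM in those nuclei of obese replicate 2. STX11, a syntaxin of regulated secretion, stood at 44.2, 64.2 and 81.8 CPM against 8.15 and 8.08 CPM (log2 difference 2.96, SE 0.46, adjusted p = 0.0445; 3.87 in smooth-muscle-low nuclei). Its diet difference in non-endothelial nuclei was 2.90, about the same size. MCTP1, a calcium-binding membrane protein, stood at 127, 360 and 108 CPM against 33.3 and 19.5 CPM (2.91, adjusted p = 0.0495; 3.51 in smooth-muscle-low nuclei).

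Among the other large rises, RUNX1, a transcription factor gene, stood at 215, 432 and 151 CPM against 14.9 and 2.69 CPM (log2 difference 4.82, SE 0.71, adjusted p = 0.0414), and in smooth-muscle-low nuclei at 42.8, 473 and 37.1 CPM against 14.0 and 0.922 CPM. The filopodial motor MYO10 stood at 72.4, 414 and 280 CPM against 20.2 and 12.8 CPM (3.93, and 5.48 in smooth-muscle-low nuclei), and RELL1 at 169, 249 and 34.5 against 6.02 and 8.76 CPM (4.41 and 5.43). In obese replicate 3, the nucleus richest in each gene held 54 of 65 UMIs of MYO10, 7 of 8 of RELL1 and 21 of 35 of RUNX1. Without that nucleus the pig stood at 48.4 CPM of MYO10, 64.5 of RUNX1 and 4.56 of RELL1, the last below both controls. The nuclei richest in MYO10 and RELL1 are smooth-muscle-low, so that pig's levels of these genes there rest mostly on them. HK2, the inducible hexokinase, stood at 20.1, 109 and 25.8 CPM against 0.709 and 1.35 CPM (5.66). All 6 HK2 UMIs of obese replicate 3 lay in 1 nucleus, without which that pig stood at 0 CPM, below both controls. In smooth-muscle-low nuclei HK2 had UMIs in 1 of the 3 obese pigs. VTCN1, an inhibitory immune ligand (3.00 in all nuclei), was at 9.52, 76.8 and 24.7 CPM against 4.84 and 5.53 CPM in smooth-muscle-low nuclei. ADAM12, a metalloprotease of the mesenchyme, stood at 78.4, 60.3 and 34.5 CPM against 3.90 and 9.43 CPM (3.24, and 3.29 in smooth-muscle-low nuclei). In 1 nucleus each lay 26 of 39 UMIs of obese replicate 1 and 6 of 8 of obese replicate 3. The nucleus of obese replicate 3 is smooth-muscle-low.

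**Figure D3:**
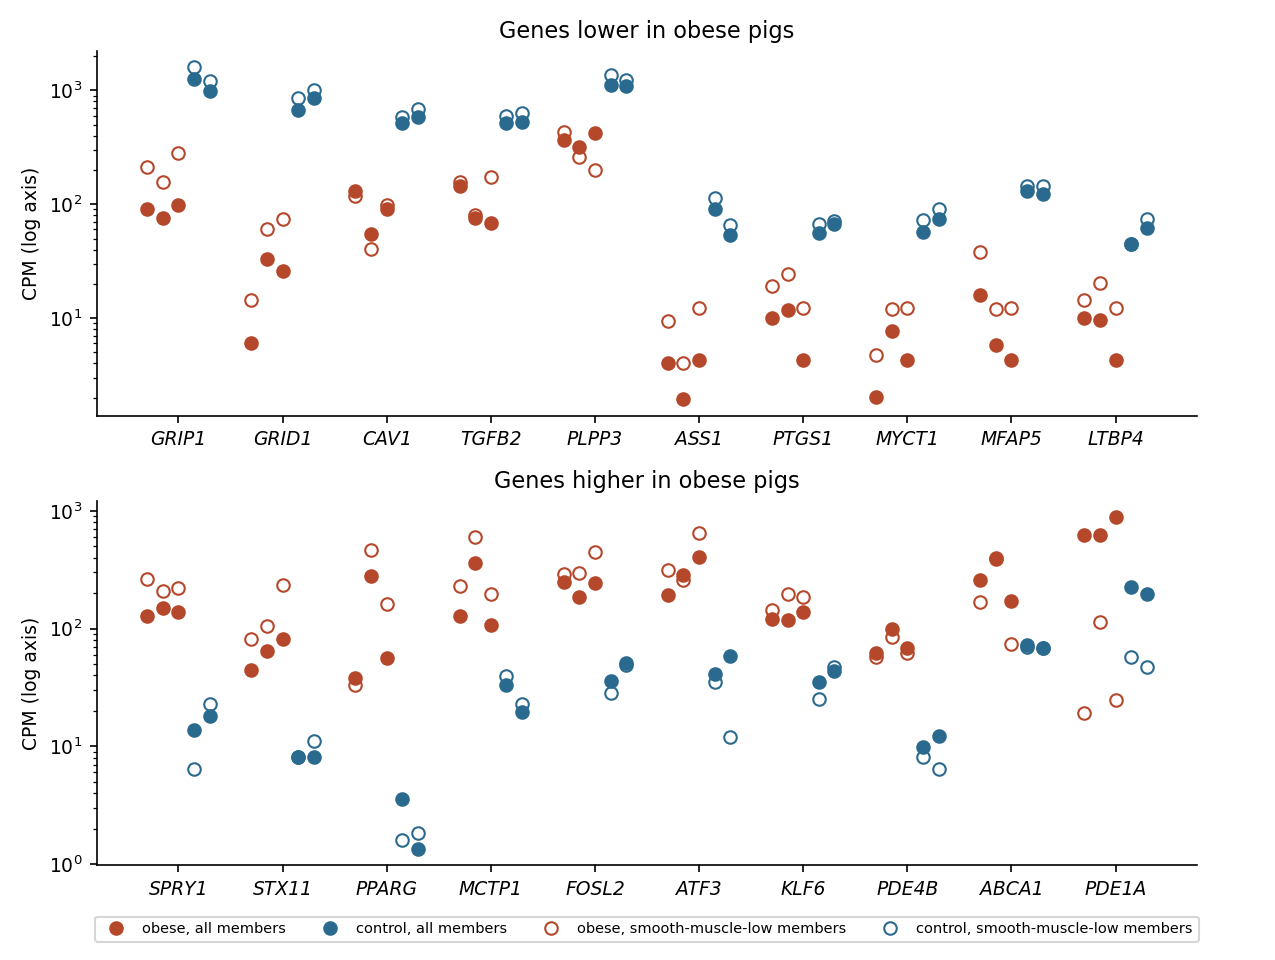
CPM (log axis) of 10 genes lower and 10 genes higher in obese pigs, 1 point per pig in the order obese replicates 1 to 3 and control replicates 1 and 2; filled points are all arterial-type nuclei and open points smooth-muscle-low nuclei. The groups stay apart in both sets for every gene shown but PDE1A, whose open obese points lie at 19.0, 113 and 24.7 CPM.

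A few rises were absent from smooth-muscle-low nuclei. PDE1A, a phosphodiesterase abundant in smooth muscle, stood at 621, 626 and 883 CPM in the obese pigs and 226 and 196 CPM in the controls (log2 difference 1.79, SE 0.32, adjusted p = 0.0445). In smooth-muscle-low nuclei it stood at 19.0, 113 and 24.7 CPM against 57.0 and 47.0 CPM, with overlapping groups and a log2 difference of 0.21 (adjusted p = 0.926). Among basement membrane genes, COL4A2 kept its difference (1.57 in all and 2.32 in smooth-muscle-low nuclei), while COL4A6 was at 38.1, 44.4 and 0 CPM against 15.6 and 21.2 CPM there. NOX4, an oxidase that makes hydrogen peroxide, differed by 1.56 in all and 1.08 in smooth-muscle-low nuclei, and the protease ADAMTS9 by 1.54 and 2.56.

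**Figure D4:**
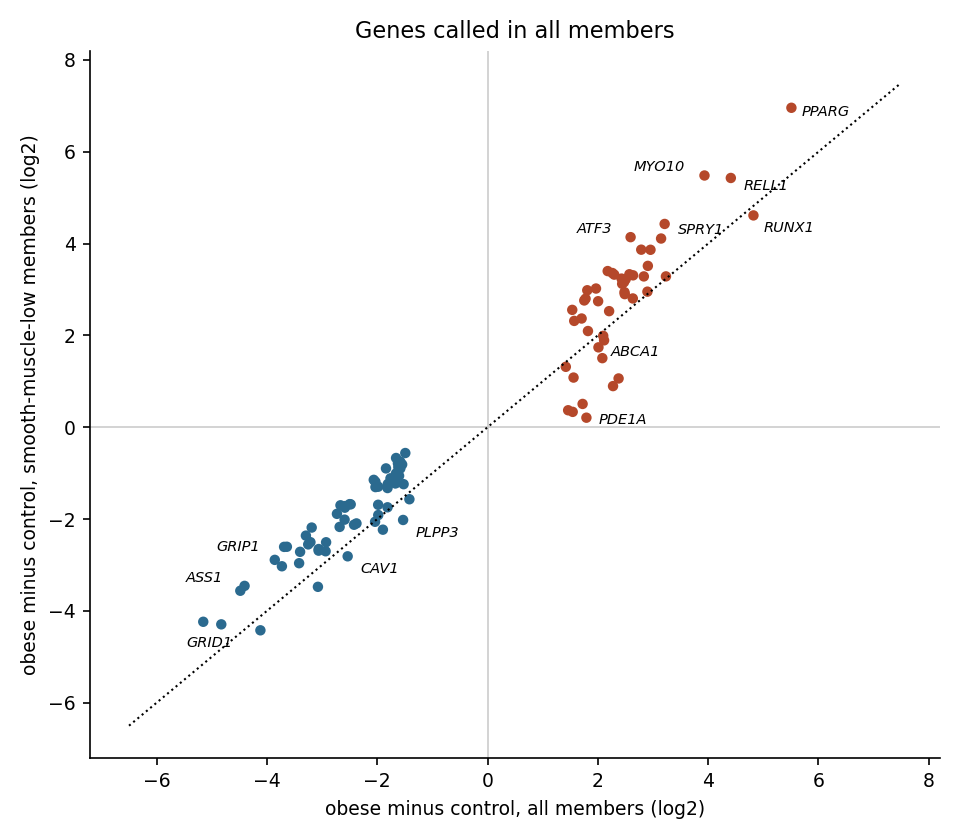
Log2 difference between obese and control pigs of each called gene in all arterial-type nuclei (horizontal) and in smooth-muscle-low nuclei (vertical), for 106 called genes that were tested there and had UMIs in both groups; the dotted line marks equal values. All 106 lie in the quadrant of their own sign, with PDE1A at 0.21 and PPARG at 6.96 on the vertical axis. The smooth-muscle-low nuclei are part of the nuclei in which the genes were called, so the shared sign is no independent test.

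Gene lists put these genes among others of their pathways, each list read against all genes tested, with a median log2 difference of 0.01 and 1.83% called. Of 19 tested immediate early genes, which many cells induce rapidly and for a short time after a stimulus, 4 rose, 0 fell and 18 had a positive difference, with a median of 1.53. FOSL2, a subunit of the AP-1 transcription factor, stood at 247, 187 and 246 CPM in the obese pigs and 36.1 and 50.5 CPM in the controls (log2 difference 2.43, SE 0.34, adjusted p = 0.0407). ATF3 stood at 191, 286 and 405 CPM against 41.1 and 58.6 CPM (2.59, adjusted p = 0.0445), the nuclear receptor NR4A3 at 139, 226 and 207 against 42.2 and 57.2 CPM (1.97), and KLF6 at 121, 119 and 138 against 35.1 and 43.8 CPM (1.71). All 4 were at least as far apart in smooth-muscle-low nuclei, at 3.24, 4.14, 3.02 and 2.37, where the list's median over 15 tested genes was 2.20 and edgeR called 0. FOS, chosen after its values were seen, stood at 428, 262 and 922 CPM against 105 and 140 CPM (2.19, adjusted p = 0.0855; 2.65 in smooth-muscle-low nuclei). FOSL2, ATF3, NR4A3 and KLF6 did not pass the test in non-endothelial nuclei, where edgeR called 0 of 20177 genes (2777 at an unadjusted p under 0.05) and limma-voom 0. The log2 differences there were 1.88 for FOSL2, 1.20 for ATF3, 1.10 for NR4A3 and 1.66 for KLF6, and no interaction was called for these 4.

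Of 13 tested flow-responsive genes, 2 fell (ASS1 and PLPP3), 0 rose and 13 had a negative difference, with a median of -1.47. The median was -0.74 in smooth-muscle-low nuclei, where 3 of 13 were positive and edgeR called 0. NOS3 and KLF2, a shear-induced transcription factor gene, were chosen after their values were seen. NOS3 stood at 275, 50.5 and 142 CPM in the obese pigs and 570 and 601 CPM in the controls, without overlap, but did not pass the test (log2 difference -1.85, SE 0.58, adjusted p = 0.129); in smooth-muscle-low nuclei it was at 652, 88.9 and 408 CPM against 686 and 714 CPM. KLF2 was at 84.4, 85.5 and 81.8 CPM against 59.9 and 143 CPM, and the control pigs lay on either side of the obese ones.

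The remaining lists had few calls. Vasoactive genes had 2 falls of 18 tested (CAV1, PTGS1; median 0.37), phosphodiesterases 2 rises of 13 (PDE4B, PDE1A; 0.51), and angiogenesis genes 2 rises of 13 (NOX4, ADAMTS9; 0.61). PDE4B, which degrades cyclic AMP, stood at 62.3, 99.1 and 68.9 CPM against 9.92 and 12.1 CPM (log2 difference 2.83, adjusted p = 0.0407; 3.29 in smooth-muscle-low nuclei). Basement membrane genes had 2 rises of 18 (0.33), hypoxia and glycolysis genes 1 of 16 (HK2; 0.80), fatty acid genes 1 of 15 (PPARG; 0.71), ERK feedback genes 1 of 7 (SPRY1; 0.23) and LXR targets 1 of 7 (1.18). The LXR call was ABCA1, the cholesterol exporter, at 259, 399 and 172 CPM against 71.9 and 68.0 CPM (2.01, adjusted p = 0.0445; 1.74 in smooth-muscle-low nuclei). Arterial identity genes outside the rule had 1 fall of 12 (LTBP4; median -0.58) and mesenchymal transition genes 1 fall of 16 (TGFB2; 0.32).

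No gene was called among the lists for endothelial identity outside the rule (18 tested, median -0.59), venous and capillary identity (10, 0.72), adhesion, cytokine and NF-kB (14, 0.57), heat shock (11, 0.21), sterol synthesis (6, -0.45), junctions (17, -0.41), coagulation (10, -0.14), insulin, FOXO and glucocorticoid (17, 0.60), and interferon and antigen presentation (9, 0.67). In the identity list, LDB2, a transcriptional cofactor, stood at 985, 1147 and 1206 CPM against 2215 and 1691 CPM, but in smooth-muscle-low nuclei at 2042, 2162 and 3142 against 2609 and 1954 CPM, and CYYR1 differed by -1.38 in all and -0.33 in smooth-muscle-low nuclei. NFKBIZ, an NF-kB cofactor, stood at 818, 406 and 401 CPM against 182 and 143 CPM (log2 difference 1.78, adjusted p = 0.0676; 2.08 in smooth-muscle-low nuclei), and the matrix protein gene THBS1 at 545, 478 and 1378 against 165 and 78.1 CPM (2.77, adjusted p = 0.0641; 2.94). STAT3, a transcription factor gene of cytokine signalling, differed by 1.40 (adjusted p = 0.0877; 1.92). SREBF2 differed by -0.14 and SCAP by -0.66, HSPH1 by 0.42 and DNAJB4 by 0.24, MAGI1 by 1.06 and PARD3 by 0.55, ZBTB16 by 0.34, IL1R1 by 0.64 and LIFR by -1.57, and ENTPD1 by -1.41, and none of these passed the test.

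**Figure D5:**
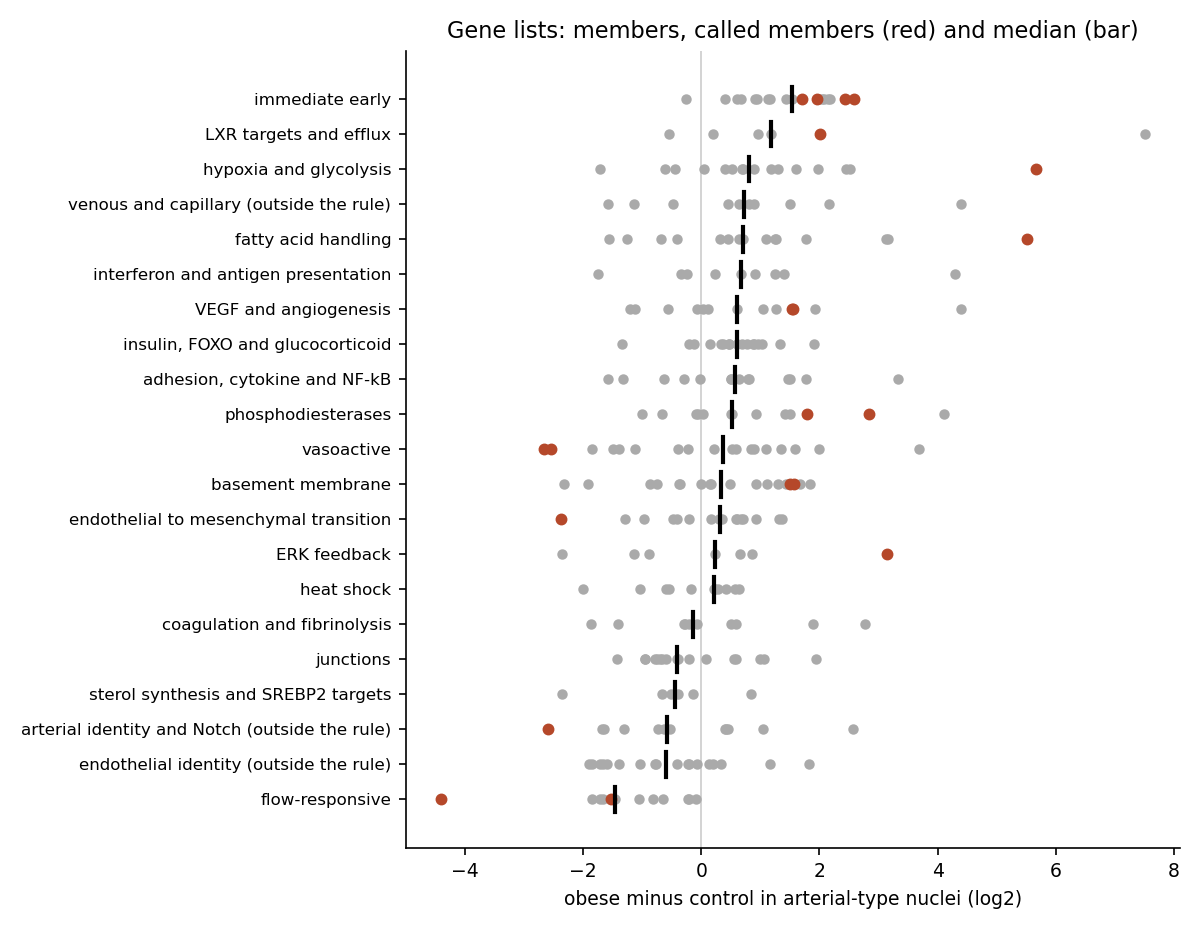
Log2 difference between obese and control pigs in arterial-type nuclei for each tested gene of the pathway lists (points), with called genes in red and the list's median as a black bar. Immediate early genes have the highest median (1.53) and flow-responsive genes the lowest (-1.47).

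The regions upstream of the gene starts are shown for ASS1 and FOSL2, 1 called gene of each of these 2 lists, because they hold matches to a motif searched there; those of PLPP3 and ATF3 held none. The 250 bases before the RefSeq gene start (Sscrofa11.1, read 5′ to 3′ along the gene) lie at chr1:270531184-270531433 on the plus strand for ASS1 and at chr3:110842904-110843153 on the minus strand for FOSL2. The labels name the build Sscrofa11 and the deposited matrices carry no coordinates. Capitals mark CACCC or its reverse complement, a core bound by factors of the KLF family.
ASS1: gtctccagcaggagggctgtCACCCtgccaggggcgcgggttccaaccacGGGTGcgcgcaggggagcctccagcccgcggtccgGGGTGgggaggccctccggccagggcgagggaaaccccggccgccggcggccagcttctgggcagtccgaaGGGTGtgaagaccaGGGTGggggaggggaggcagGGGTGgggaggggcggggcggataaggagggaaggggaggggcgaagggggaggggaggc
FOSL2: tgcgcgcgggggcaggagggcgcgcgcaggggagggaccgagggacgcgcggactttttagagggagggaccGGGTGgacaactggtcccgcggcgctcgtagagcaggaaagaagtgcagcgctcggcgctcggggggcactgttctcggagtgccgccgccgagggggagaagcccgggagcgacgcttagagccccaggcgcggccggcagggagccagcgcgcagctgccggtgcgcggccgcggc
ASS1 held 6 matches and FOSL2 1. The motif is common: it occurred on either strand in 53.9% of 19545 protein-coding promoter windows of the same length, in 51.9% of 52 windows of genes called higher and in 61.5% of 52 windows of genes called lower. The AP-1 motif TGANTCA, searched on both strands with overlaps between motifs allowed, occurred in 5.25% of all windows, 9.62% of those called higher and 1.92% of those called lower. These matches describe the letters of the windows and are not evidence of binding.

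Whether the diet difference of arterial-type nuclei departed from that of venous or capillary-type nuclei was tested as an interaction within pigs. Of 7229 genes, 0 (0.0%) passed an adjusted p of 0.05 in edgeR, the only tool run for it, with 576 at an unadjusted p under 0.05 and a smallest adjusted p of 0.0711. The genes of smallest p were P3H2, a collagen prolyl hydroxylase, SH3BGRL2 and the smooth muscle gene SYNPO2. P3H2 stood at 173, 177 and 172 CPM in arterial-type nuclei of the obese pigs and 30.8 and 26.3 CPM in the controls. In smooth-muscle-low nuclei it stood at 119, 72.7 and 24.7 CPM against 15.6 and 7.38 CPM. These levels are of the arterial-type side of the contrast only. Venous or capillary-type nuclei fitted alone gave 0 called genes of 3626 by edgeR (274 at an unadjusted p under 0.05), 0 by limma-voom, and 34 higher and 4 lower by DESeq2. The venous or capillary class held 14 to 154 nuclei a pig and was mixed in obese replicate 2 as given above. An 8-fold simulated difference was found in 29.9% of changed genes, so most simulated differences of that size were missed. The simulation did not use the spread between these pigs, so this percentage need not hold for the data.

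Against non-endothelial nuclei, the diet difference of arterial-type nuclei departed for 929 of 17979 genes (5.17%), 430 (2.39%) more positive and 499 (2.78%) more negative. With smooth-muscle-low nuclei the count was 195. The genes of smallest p on the negative side were GRID1 (interaction log2 -6.16), DAB2, an endocytic adaptor (-3.55), GRIP1 (-3.30), ANO4, LTBP2, CCDC141, TMCC3 and FRMD3. DAB2 stood at 56.3, 144 and 38.8 CPM against 428 and 240 CPM in arterial-type nuclei, and at 55.0, 107 and 39.1 against 47.0 and 12.6 CPM in non-endothelial nuclei. With smooth-muscle-low nuclei all 8 of these kept an adjusted p under 0.05. ANO4, a calcium-gated membrane protein, and LAMA1, both among the genes higher in arterial-type than venous or capillary-type nuclei, were also called lower in the obese pigs (-3.29 and -3.19).

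On the positive side the genes of smallest p were RUNX1, PPM1L, AFF3, PDZRN4, CNKSR3, ADAMTSL1, KCNB2 and NPAS3. PPM1L, a protein phosphatase gene, stood at 398, 309 and 806 CPM in arterial-type nuclei of the obese pigs and 129 and 136 CPM in the controls, but at 28.6, 60.6 and 37.1 CPM against 44.6 and 49.8 CPM in smooth-muscle-low nuclei. With smooth-muscle-low nuclei 6 of the 8 no longer passed: PPM1L at 0.18 (adjusted p = 0.95), PDZRN4 at 0.03 (1), ADAMTSL1 at -0.17 (0.95), RUNX1 at 1.72 (0.205), AFF3 at 1.57 (0.672) and NPAS3 at 1.53 (0.540). KCNB2 and CNKSR3 still passed, at 2.77 (adjusted p = 4.6e-05) and 3.86 (adjusted p = 9.3e-10). KCNB2 stood at 1114, 849 and 878 CPM against 266 and 172 CPM in smooth-muscle-low nuclei. In non-endothelial nuclei it stood at 133, 196 and 227 CPM against 336 and 334 CPM. In obese replicates 1 and 2, 1 nucleus held 104 of 257 and 112 of 274 KCNB2 UMIs, and both nuclei are smooth-muscle-low. Without its richest nucleus each obese pig stood at 311, 317 and 611 CPM in all arterial-type nuclei. The controls stood at 294 and 247 CPM there with every nucleus kept. Without control replicate 1 or 2 the count of 929 was 348 or 240.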

How the data were processed

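UMI counts per gene and nucleus were deposited by the authors as 1 filtered matrix per library. The matrix headers name Cell Ranger 7.1.0 per the file headers, while Cell Ranger 5.0 and Seurat 5.0 are given per the submitters' processing notes, and the build is Sscrofa11 per the labels. Of 35670 features, 17508 carried a symbol and 220 more were named from an ID table. No barcode held fewer than 500 UMIs. Nuclei under 300 genes were left out. The files name no cell types, so the rule assigned them. Counts were summed per library and class and tested with edgeR 4.0.16 (TMM, filterByExpr by group, robust quasi-likelihood F-test, Benjamini-Hochberg over all genes tested, adjusted p under 0.05), and interactions with the pig as a block. R 4.3.3, limma 3.58.1, DESeq2 1.42.0, Python 3.11.15, scanpy 1.11.5 and scipy 1.17.1 were used. Standard errors are the log2 difference divided by the root of F.

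Doublets were ranked with Scrublet, whose own threshold marked 0 to 2 barcodes per library and so did not work. The alternative without doublets removed the top 0.8% per 1000 barcodes, which held 4.56% to 9.88% of all nuclei. Of arterial-type nuclei it held 8.06%, 12.3% and 11.1% in the obese pigs and 19.4% and 15.8% in the controls, so unequal parts of the diet groups were removed. Mitochondrial UMIs were above 5% in 0 arterial-type nuclei. Named genes were the 10 called genes of largest rise and of largest fall outside the rule, up to 4 called genes of each list or its 2 of highest level, the 8 of smallest p per direction of an interaction (3 where none was called), and 12 per direction of largest median log2 ratio (pseudocount 1 CPM) between the endothelial types. On simulated data drawn from these libraries the diet fit found 41.6% of 4-fold and 91.9% of 8-fold changed genes, with 2 and 14 false calls. The interaction with non-endothelial nuclei found 3.5% and 35.5%. The simulation used pooled means and the same dispersion for every gene. It did not use the spread between these pigs, so these percentages need not hold for the data. Alternatives were leaving out each library, DESeq2 size factors, DESeq2, limma-voom, no filter on low counts, other definitions of the nuclei, thinning and a replicate block; those on smooth muscle content, ERG and equal pooled depth were added after the data were seen. The members and gene lists were chosen with earlier results of these data known. Promoters came from RefSeq's Sscrofa11.1 genome. Some genes that the rule names are not reported here.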

Additional observations from a re-analysis of the deposited data

Results flagged for a closer look

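The diet difference of arterial-type nuclei departed from that of non-endothelial nuclei, by an interaction test, for 929 genes. Among those of smallest p, the difference of the 2 log2 diet effects (arterial-type minus non-endothelial) was 2.61 for RUNX1, 2.29 for PPM1L, 2.05 for AFF3, 1.72 for PDZRN4, 2.44 for CNKSR3, 1.91 for ADAMTSL1, 2.02 for KCNB2 and 2.21 for NPAS3. It was -6.16 for GRID1, -3.30 for GRIP1, -2.98 for TMCC3, -3.55 for DAB2, -2.79 for FRMD3, -3.85 for ANO4, -2.80 for LTBP2 and -3.01 for CCDC141. With smooth-muscle-low nuclei, the values were 0.18 for PPM1L, 0.03 for PDZRN4, -0.17 for ADAMTSL1, 1.72 for RUNX1, 1.57 for AFF3 and 1.53 for NPAS3, none of which passed the test, and 3.86 for CNKSR3, 2.77 for KCNB2, -5.51 for GRID1, -2.54 for GRIP1 and -3.55 for DAB2.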

How the results depend on the processing

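The 121 diet calls changed with nearly every choice tried. Leaving out 1 library gave 0 to 284 calls, DESeq2 504, limma-voom 239, no filter on low counts 901, doublet removal 274, a panel margin of 2 genes 4, at least 4 endothelial genes 6, removal of nuclei with 3 or more markers of another class 57, thinning 5 (of 208 genes tested) and all blood endothelial nuclei together 0 (1464 at an unadjusted p under 0.05). Alternatives added after the data were seen gave 97 without nuclei holding 3 or more smooth muscle markers, 106 at equal pooled depth, 0 in smooth-muscle-low nuclei with edgeR, 174 with DESeq2 and 25 with limma-voom, 0 with 3 of the 7 genes other than ERG (650 at an unadjusted p under 0.05) and 0 with both (550). DESeq2 size factors gave 117. Same-numbered replicates were taken as different pigs, and their deviations from the group means correlated at 0.054 and -0.00763. With 2 controls, the deviations of one mirror those of the other, so these values cannot show whether the numbers pair libraries. The replicate block gave 259 calls. The interaction with venous or capillary-type nuclei gave 0 to 17 calls when 1 library was left out and 39 with no filter. The interaction with non-endothelial nuclei gave 240 to 1057 and, with smooth-muscle-low nuclei, 195. Thinned, 137 genes were higher in arterial-type nuclei in 5 of 5 pigs. The share of all nuclei differed by -2.50 to -1.96 percentage points and that of blood endothelial nuclei by -41.7 to -31.7 points with 1 library left out. Obese replicate 3 had the fewest nuclei (27).

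Some uncalled list genes changed sign. With at least 4 endothelial genes, LDB2 differed by 0.27, HSPH1 by -0.26, DNAJB4 by -0.034, PARD3 by -0.13 and KLF2 by 0.24. Thinned to 1000 UMIs, LDB2 differed by 0.77. Without nuclei holding 3 or more smooth muscle markers, LDB2 differed by 0.69, DNAJB4 by -0.18 and KLF2 by 0.44. In smooth-muscle-low nuclei, LDB2 differed by 0.20, SREBF2 by 0.0042 and KLF2 by 0.32. With 3 of the 7 genes other than ERG, LDB2 differed by 0.15, HSPH1 by -0.35, DNAJB4 by -0.16, PARD3 by -0.19 and KLF2 by 0.072. With both of these, LDB2 differed by 0.41, HSPH1 by -0.015, DNAJB4 by -0.21, PARD3 by -0.26 and KLF2 by 0.10. By DESeq2 in smooth-muscle-low nuclei, LDB2 differed by 0.10, HSPH1 by -0.011, DNAJB4 by -0.053 and KLF2 by 0.25. By limma-voom there, LDB2 differed by 0.23, SREBF2 by 0.023 and KLF2 by 0.43. Under the replicate block, HSPH1 differed by -0.044. Without doublet-ranked nuclei, SREBF2 differed by 0.12. At equal pooled depth, SREBF2 differed by 0.12. Without nuclei holding 3 or more markers of another class, KLF2 differed by 0.24. When 1 library was left out, HSPH1 ranged from -0.25 to 1.39, DNAJB4 from -0.11 to 0.60, ZBTB16 from -0.073 to 0.81 and KLF2 from -0.77 to 0.50. The cause of these changes was not tested.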

Other observations

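Other called genes, chosen after their values were seen, fill in the same 2 directions. HEG1, an endothelial junction receptor, stood at 366, 134 and 164 CPM in the obese pigs and 1889 and 1172 CPM in the controls (log2 difference -2.73, adjusted p = 0.0445; -1.89 in smooth-muscle-low nuclei). GATA2, a transcription factor gene of endothelium, stood at 10.1, 21.4 and 30.2 CPM against 82.9 and 152 CPM (-2.58; -1.72), and was nearly silent in non-endothelial nuclei, at 0.377 to 1.23 CPM. SMAD6, an inhibitor of BMP signalling, differed by -1.98 (-1.29 in smooth-muscle-low nuclei) and the caveolar protein gene EHD2 by -1.81 (-1.74).

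PDGFRB, a receptor of mural cells, stood at 72.4, 77.8 and 51.7 CPM against 15.2 and 19.5 CPM (log2 difference 2.01, adjusted p = 0.0477). In smooth-muscle-low nuclei it was at 42.8, 64.6 and 37.1 CPM against 4.30 and 12.0 CPM. CDH11, a mesenchymal cadherin, stood at 183, 156 and 190 CPM against 59.5 and 44.4 CPM, but in smooth-muscle-low nuclei at 4.76, 60.6 and 0 against 20.4 and 7.38 CPM, where the groups overlapped. CD44, the hyaluronan receptor, differed by 2.48 (adjusted p = 0.0313; 2.94 in smooth-muscle-low nuclei) and MAFF, a partner of stress-response transcription factors, by 2.90 (adjusted p = 0.0445; 2.95).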
